A study of Mus musculus with 16 samples.

Results

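Tendon genes and the small proteoglycans of the collagen matrix were followed through skeletal muscle RNA-seq libraries of 16 mice. The set holds 10 genes, Scx, Mkx, Tnmd, Thbs4, Comp, Chad, Fmod, Dcn, Lum and Bgn, chosen as the rows of the deposited count table whose identifiers map to these mouse symbols. They are 10 of 55471 genes in the table and 10 of the 14331 genes that passed the filter on low counts, and none of the 10 was lost to that filter. All mice were male, and the design text of the series gives an age of 12 weeks, without saying at which point of the protocol, and 12 weeks of a high-fat diet with 60% of kcal from lipids, at 21 °C. Of these, 10 are labelled heterozygous for the targeted Npr1 allele (Npr1+/-, strain B6.129-Npr1tm1Gar/J, backcrossed to C57BL/6J for at least 10 generations), and 6 are labelled wildtype littermates (Npr1+/+). Npr1 encodes the natriuretic peptide receptor GCA, and the comparison asks whether muscle mRNA differs between these labels. Each library came from 1 mouse, the mice shared 4 cages, and the sources used here do not name the muscle that was sampled.

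Tendons join muscle to bone, and their cells deposit parallel fibrils of type I collagen. The transcription factors Scleraxis (Scx) and Mohawk (Mkx) are known for their part in forming these cells, and the membrane glycoprotein tenomodulin (Tnmd) marks mature ones. Small leucine-rich proteoglycans, among them decorin (Dcn), lumican (Lum), fibromodulin (Fmod) and biglycan (Bgn), bind collagen fibrils and affect how thick they grow, and in muscle they are also made by the fibroblasts between the fibers. In bulk tissue, fewer cells of a type and less RNA per cell cannot be told apart, and the amount of tendon taken along with the muscle was not recorded.

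The libraries held between 15273472 and 59682677 counts, and the highest total, that of Npr1+/- replicate 5, was the only one above 29630298. The labelled tissue was borne out by its markers, since all 10 of the skeletal muscle fiber genes listed were tested and summed to between 116169 and 191931 CPM (counts scaled by TMM to a common library size) per library. The targeted gene did not separate the labels. Npr1 had 13.6 ± 3.87 CPM (SD) over the 10 Npr1+/- mice and 12.2 ± 1.05 CPM (SD) over the 6 Npr1+/+ mice, a log2 difference of 0.09 (edgeR adjusted p = 1), so directions below are between mice as labelled. Npr1+/- replicates 6 and 7 had the highest scores on the leading principal component of the tested genes, which held 43.7% of the variance, at 66.1 and 79.9, followed by Npr1+/- replicate 5 at 42.8 and replicate 3 at 18.6. Both libraries were above the other 14 in CPM for 17.8% of all tested genes and below them for 16.2%, and among the 10 genes 3 were above in both (Comp, Chad and Fmod) and 2 below (Scx and Lum), shares to be read against those of all genes. Values without one or both are given beside the results that they move.

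Dcn was the most abundant of the 10 genes and Mkx the least. Per length of the gene as deposited, Dcn had 106.8 ± 35.8 FPKM (fragments per kilobase of gene and unit of library size, SD, n = 16), followed by Thbs4 at 66.0 ± 19.4 FPKM, Lum at 35.7 ± 15.9 FPKM and Fmod at 30.2 ± 15.1 FPKM. A lower tier held Bgn at 9.25 ± 1.24 FPKM, Tnmd at 8.31 ± 2.71 FPKM, Chad at 4.78 ± 4.19 FPKM, Scx at 2.63 ± 0.70 FPKM and Comp at 1.97 ± 1.48 FPKM, and Mkx was lowest at 0.302 ± 0.0576 FPKM. By this length the 2 steps without overlap were between Fmod and Bgn and between Comp and Mkx, over the ranges of 16 libraries. All other neighbours overlapped in range, and the order of Lum and Fmod held in 12 of 16 libraries and that of Bgn and Tnmd in 11 of 16. The deposited length counts every exon of a gene, so it is long for Dcn (5838 bases against 1758 for its principal transcript) and for Bgn (6099 against 2419). With the principal transcript as the length, Dcn had 354.6 ± 118.9 FPKM and Bgn 23.3 ± 3.13 FPKM, Scx at 5.11 ± 1.36 FPKM passed Chad, and the rest of the order was as before. The steps without overlap then lay between Dcn and Thbs4, between Bgn and Tnmd and between Comp and Mkx, whereas Fmod and Bgn overlapped, with Fmod higher in 14 of 16 libraries.

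**Figure D1:**
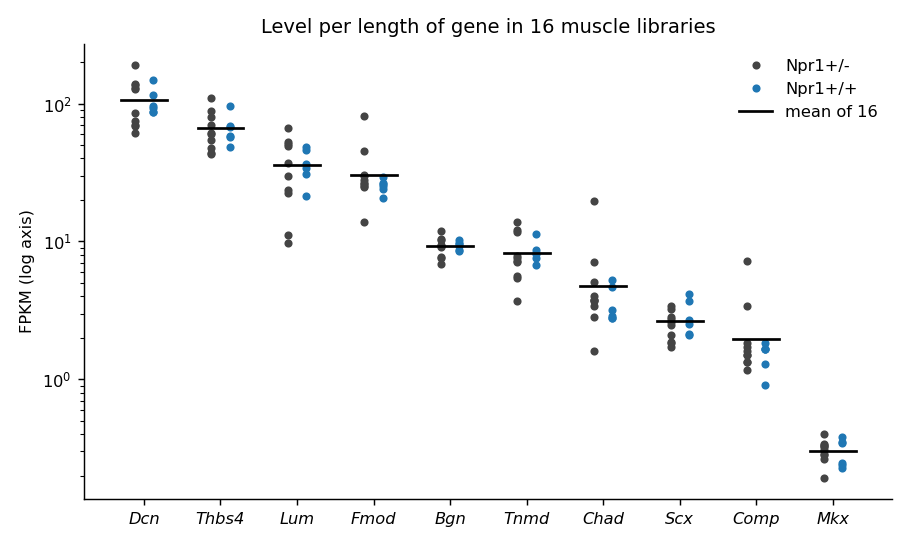
FPKM by deposited gene length on a log axis for each of the 10 genes in the 16 libraries, with Npr1+/- mice in grey, Npr1+/+ mice in blue and a line at the mean of 16. Dcn has the highest mean (106.8 FPKM) and Mkx the lowest (0.302 FPKM), and the spread of points is widest for Chad and narrowest for Bgn.

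Mice differed far more in some of these genes than in others. Bgn was the steadiest, with a coefficient of variation of 13.4% over 16 mice and 1.76-fold between its highest and lowest library. Chad varied by 87.7%, Comp by 75.1% and Fmod by 50.2%, and without Npr1+/- replicates 6 and 7 these fell to 28.2%, 17.6% and 16.3%. Lum varied by 44.5% and still by 34.0% without these libraries. For Dcn, Tnmd, Thbs4, Scx and Mkx the coefficient was between 19.1% and 33.5%, and without the same libraries it was between 19.9% and 32.4%.

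The tendon regulators were both low, and neither was called between labels. Scx, on chr15:76457452-76459449 of GRCm38, ran from 3.46 to 6.78 CPM with a median of 5.10 CPM in the 10 libraries labelled Npr1+/- and from 4.24 to 8.40 CPM with a median of 5.26 CPM in the 6 labelled Npr1+/+. Npr1+/- replicates 5, 6 and 7 held the lowest values and Npr1+/+ replicates 1 and 6 the highest, and the groups overlapped. The log2 fold change of Scx was -0.07 (standard error, abbreviated SE, of 0.24; edgeR adjusted p = 1), with a 95% interval from -0.54 to 0.41. It was -0.23 with the label as the only term, -0.18 with cage and -0.19 with body weight as the only covariate, and 0.10 without Npr1+/- replicate 5. Scx lies inside Bop1, a ribosome biogenesis gene on the opposite strand with 27.2 ± 3.20 CPM (SD, n = 16). Whether the counting used strand is not stated, so reads of these genes may not be fully told apart, and across the 16 libraries the log2 CPM of the pair had a Pearson r of -0.60. Mkx, on the minus strand of chromosome 18, ran from 0.784 to 1.63 CPM (median 1.28 CPM) in Npr1+/- and from 0.937 to 1.56 CPM (median 1.21 CPM) in Npr1+/+ libraries, which is 14 to 70 counts per library. The groups overlapped over nearly their whole range, and the log2 fold change was 0.08 (SE 0.24, adjusted p = 1). The 95% interval of this estimate ran from -0.39 to 0.55. The Mkx estimate was -0.083 with cage as the only covariate, and it ran from -0.10 to 0.19 with 1 mouse left out.

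Tnmd, on chrX:133850980-133865577, encodes the membrane protein taken as the marker of mature tendon cells. It ran from 4.999 to 18.9 CPM (median 10.03 CPM) in Npr1+/- and from 9.18 to 15.4 CPM (median 11.03 CPM) in Npr1+/+ libraries. The lowest and the highest mouse, replicates 3 and 8, were both labelled Npr1+/-, so that group enclosed the other. The log2 fold change of 0.03 (SE 0.21, adjusted p = 1) lay between -0.39 and 0.45 by its 95% interval. It was -0.06 without Npr1+/- replicate 6, and -0.04 with the label as the only term.

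Both thrombospondins of the set are pentameric matrix glycoproteins that bind collagen. Thbs4, on chr13:92751590-92794818, ran from 142.4 to 362.9 CPM (median 199.1 CPM) in Npr1+/- and from 159.5 to 316.2 CPM (median 207.5 CPM) in Npr1+/+ libraries. The means of 216.8 ± 71.5 CPM (SD, n = 10) and 217.6 ± 54.4 CPM (SD, n = 6) were nearly the same, and the groups overlapped. With cage and body weight in the fit its log2 fold change was 0.23 (SE 0.25, adjusted p = 1), against -0.0057 with the label alone and 0.067 without Npr1+/- replicate 6. Comp, on chr8:70373558-70382066, ran from 3.48 to 21.3 CPM (median 4.64 CPM) in Npr1+/- and from 2.68 to 5.42 CPM (median 4.94 CPM) in Npr1+/+ libraries. Npr1+/- replicate 6 had 21.3 CPM and replicate 7 had 10.01 CPM, while the other 14 libraries had 5.42 CPM or less. The log2 fold change of Comp was 0.34 (SE 0.40, adjusted p = 1) with all mice and -0.19 without Npr1+/- replicate 6.

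Chondroadherin (Chad) and fibromodulin, collagen-binding leucine-rich proteins, repeated the pattern of Comp. Fmod, on chr1:134037254-134048277, ran from 46.1 to 270.4 CPM (median 89.9 CPM) in Npr1+/- and from 68.1 to 96.4 CPM (median 85.1 CPM) in Npr1+/+ libraries. Npr1+/- replicate 6 (270.4 CPM) and replicate 7 (150.4 CPM) were above all the rest, of which the highest had 99.8 CPM, and Npr1+/- replicate 3 (46.1 CPM) was below all the rest. Chad, on chr11:94565047-94569127, had 33.2 CPM in Npr1+/- replicate 6 and 11.8 CPM in replicate 7, against 2.696 to 8.87 CPM in the other 14 libraries. Its medians were 6.30 CPM in Npr1+/- and 5.09 CPM in Npr1+/+ libraries, and both groups overlapped. These were the largest estimates between labels among the 10 genes, a log2 fold change of 0.47 (SE 0.47, adjusted p = 1) for Chad and 0.40 (SE 0.33, adjusted p = 1) for Fmod. Without Npr1+/- replicate 6 they were -0.17 and -0.05. Chad overlaps Acsf2 on the opposite strand, which had 1.86 ± 0.818 CPM (SD, n = 16). The log2 CPM of this pair had a Pearson r of 0.49, and their reads may not be fully told apart either.

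Because Fmod and Chad moved together across mice while Bgn varied least, the bases just before their start sites are shown side by side. Promoters of 5 of the 10 genes (Fmod, Chad, Thbs4, Bgn and Tnmd) were matched by symbol in RefSeq sequences of GRCm38.p6, and the 250 bases before each start were searched on both strands for the E-boxes CAGCTG and CAGATG, the kind of site that Scleraxis binds, and for the EGR site GCGTGGGCG. Scx, Mkx, Comp, Dcn and Lum had no entry that was used. The sequences run 5′ to 3′ on the plus strand over chr1:134037004-134037253 for Fmod, chr11:94564797-94565046 for Chad and chrX:73483351-73483600 for Bgn, with E-boxes in capitals.
Fmod: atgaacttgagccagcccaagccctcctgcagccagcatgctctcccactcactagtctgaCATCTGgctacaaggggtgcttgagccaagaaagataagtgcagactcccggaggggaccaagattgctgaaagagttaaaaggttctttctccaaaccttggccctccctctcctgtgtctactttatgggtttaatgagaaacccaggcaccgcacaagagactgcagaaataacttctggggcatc
Chad: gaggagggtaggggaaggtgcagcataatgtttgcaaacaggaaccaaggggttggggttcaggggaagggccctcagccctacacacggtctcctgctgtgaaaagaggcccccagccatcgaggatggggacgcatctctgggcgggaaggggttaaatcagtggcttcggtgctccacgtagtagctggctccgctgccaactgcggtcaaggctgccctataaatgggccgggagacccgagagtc
Bgn: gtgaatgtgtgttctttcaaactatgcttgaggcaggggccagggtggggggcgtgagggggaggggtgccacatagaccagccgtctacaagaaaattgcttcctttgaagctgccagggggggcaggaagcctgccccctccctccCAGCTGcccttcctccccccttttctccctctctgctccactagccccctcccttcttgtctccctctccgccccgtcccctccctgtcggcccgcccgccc
The Fmod window held CAGATG once, read on the minus strand as CATCTG 189 bases before the start, and the Bgn window held CAGCTG once, 102 bases before the start. The windows of Chad, Thbs4 and Tnmd held neither E-box, and none of the 5 held GCGTGGGCG. Of 32851 promoters with windows of the same length, 13.0% held CAGCTG, 14.4% held CAGATG, 25.5% held either and 0.536% held GCGTGGGCG, so the matches are a description of these letters and not of binding.

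Decorin and lumican are neighbours on chromosome 10. Dcn, on chr10:97479609-97518143, ran from 354.8 to 1118 CPM (median 621.1 CPM) in Npr1+/- and from 503.2 to 859.4 CPM (median 553.1 CPM) in Npr1+/+ libraries. Npr1+/- replicate 7 was lowest and replicate 9 highest, so the Npr1+/- range enclosed the other, and the log2 fold change was 0.10 (SE 0.21, adjusted p = 1). The Dcn estimate was -0.19 with cage as the only covariate, and it ran from -0.030 to 0.18 with 1 mouse left out. Lum, on chr10:97565128-97572703, had 23.8 CPM in Npr1+/- replicate 6 and 27.4 CPM in replicate 7, below the range of 52.3 to 161.9 CPM in the other 14 libraries. These are the same mice that were highest for Fmod, Comp and Chad. The medians of Lum were 82.2 CPM in Npr1+/- and 86.1 CPM in Npr1+/+ libraries, the groups overlapped, and its log2 fold change was 0.23 (SE 0.35, adjusted p = 1), or -0.04 with the label as the only term. Without Npr1+/- replicate 6, the lowest library, the estimate was 0.46 (edgeR unadjusted p = 0.105). Biglycan, which carries a pair of glycosaminoglycan chains and lies on chrX:73483602-73495929, ran from 41.6 to 73.2 CPM (median 56.6 CPM) in Npr1+/- and from 51.7 to 62.2 CPM (median 57.8 CPM) in Npr1+/+ libraries. Its log2 fold change of -0.09 (SE 0.16, adjusted p = 1) had the narrowest 95% interval of the set, from -0.40 to 0.22.

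**Figure D2:**
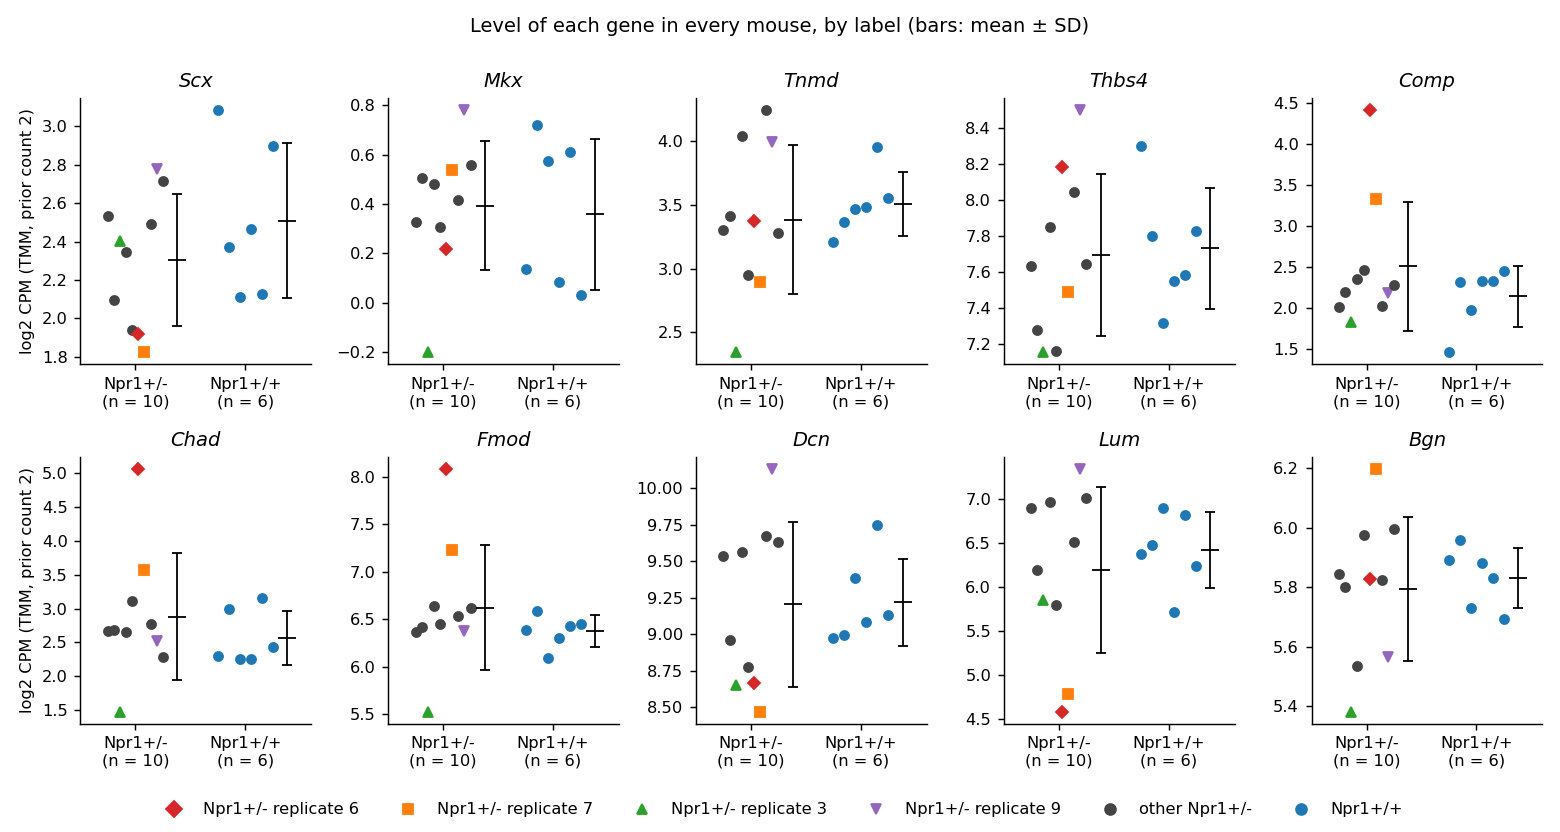
Log2 CPM (TMM, prior count 2) of each gene in every mouse by label, with replicates 3, 6, 7 and 9 of Npr1+/- marked and bars for the mean and SD of each label. Npr1+/- replicates 6 and 7 lie at the top for Comp, Chad and Fmod and at the bottom for Lum, and the labels overlap in each panel. The share of all tested genes that overlap in this way was not counted.

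Between labels, 0 of the 10 genes had an adjusted p-value under 0.05 in edgeR's quasi-likelihood test adjusted for cage and body weight, with p-values corrected by the Benjamini-Hochberg method, as for 0% of all 14331 genes. At an unadjusted p-value under 0.05 the count was also 0 of 10, against 1.05% of all genes, and the smallest was 0.248 for Fmod. DESeq2 and limma-voom called 0 of the 10 as well, and so did every alternative run. The estimates were above 0 for 8 genes and below 0 for Scx and Bgn, with a median of 0.16 against -0.0060 over all tested genes, and this median was -0.03 without Npr1+/- replicate 6. With cage as the only covariate it was -0.06, and Mkx, Tnmd, Dcn and Lum then had estimates below 0. The mice labelled Npr1+/- weighed 43.6 ± 3.79 g (SD, n = 10) and those labelled Npr1+/+ 47.4 ± 4.69 g (SD, n = 6), so body weight moved with the label. Within cages the differences rest on few mice, since cages 676 and 678 held 1 Npr1+/+ mouse each, cage 677 held 1 Npr1+/- mouse and cage 675 held 2 of each label, so they are values without a test. The log2 CPM of Fmod was higher on the Npr1+/- side in 4 of 4 cages, from 0.03 in cage 677 to 0.46 in cage 675, the cage of replicate 6. Without replicate 6 the difference in cage 675 was -0.81 and rested on replicate 3 alone, the library with the lowest Fmod of all, and the count was 3 of 4. Lum was higher in 1 of 4 cages, from -1.48 in cage 675 to 0.61 in cage 678, and in 1 of 4 without replicate 6, from -0.84 to 0.61, and the other genes were higher in 1 to 3 of 4 cages.

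**Figure D3:**
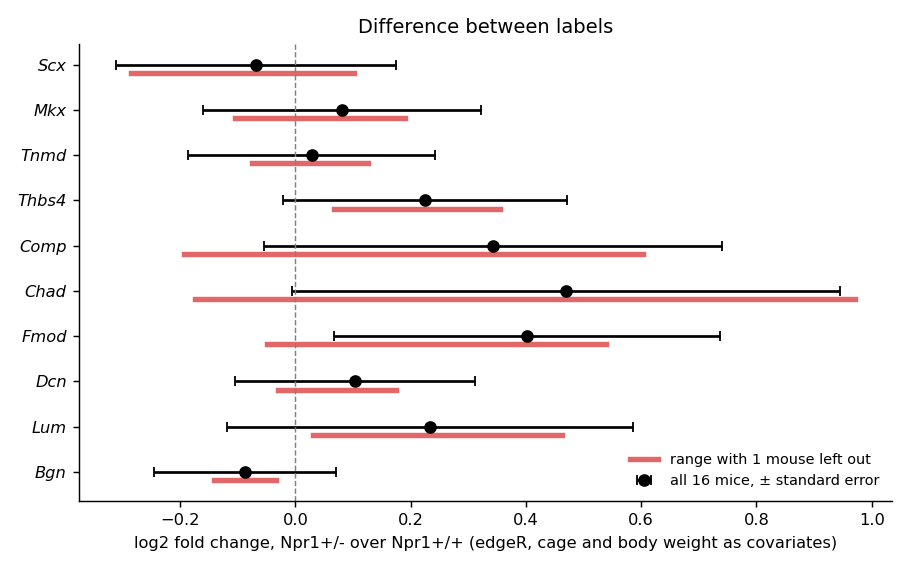
Log2 fold change of Npr1+/- over Npr1+/+ for each gene from edgeR with cage and body weight as covariates (points with standard errors) and the range of the estimate when each mouse is left out in turn (red bars). The red bars cross 0 for 7 of 10 genes, and those of Comp, Chad and Fmod reach below 0 through the omission of Npr1+/- replicate 6.

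The 10 genes did not vary as a block. Of the 45 pairs, 5 had a Pearson r of log2 CPM above 0.7 across the 16 mice, 5 had r below -0.5 and 16 had r below 0, and the median was 0.20. All pairs share the same libraries and scaling, and mice share cages, so these values describe the libraries and carry no p-value. Such counts were not made for pairs of other genes. Over the other tested genes the median r was -0.024 with Tnmd and -0.071 with Dcn. Comp, Chad and Fmod formed the tightest trio, with r = 0.93 for Fmod and Chad, 0.89 for Comp and Fmod and 0.89 for Comp and Chad. Without Npr1+/- replicates 6 and 7 (n = 14) these were 0.75, 0.46 and 0.51. The ranks gave another order: Spearman rho without these libraries was 0.503 for Fmod and Chad, 0.574 for Comp and Fmod and 0.446 for Comp and Chad, from 0.668, 0.715 and 0.629 in all mice. Among the 6 Npr1+/+ mice alone r was 0.665 for Fmod and Chad, 0.32 for Comp and Fmod and 0.43 for Comp and Chad. After label, cage and body weight were removed from each gene in all 16 mice, the trio had r = 0.939 for Fmod and Chad, 0.955 for Comp and Fmod and 0.921 for Comp and Chad, with replicates 6 and 7 included.

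Dcn had r above 0.7 with Lum and with Tnmd, with or without these libraries. The r of Dcn and Lum was 0.860 in 16 mice and 0.865 without Npr1+/- replicates 6 and 7, and it was 0.90 within the 10 Npr1+/- and 0.62 within the 6 Npr1+/+ mice. For Tnmd and Dcn the same values were 0.77, 0.78, 0.76 and 0.90. Tnmd and Lum were less close, at 0.51, 0.57, 0.52 and 0.33. After the same terms were removed, r was 0.74 for Dcn and Lum, 0.45 for Tnmd and Dcn and -0.075 for Tnmd and Lum (n = 16). Of the 5 pairs with r below -0.5, the 3 with Lum did not stay so without replicates 6 and 7: r was -0.72 for Comp and Lum and then -0.02, -0.58 for Lum and Chad and then 0.20, and -0.56 for Fmod and Lum and then 0.365. With all 16 mice and label, cage and body weight removed, these 3 pairs had r = -0.748, -0.757 and -0.822 in the same order. The other 2 stayed below 0, with -0.58 and then -0.39 (n = 14) for Scx and Comp and -0.57 and then -0.37 for Scx and Chad. Scx and Thbs4 had r = 0.53 in all mice and 0.74 without these libraries, while Scx and Tnmd, a transcription factor and a gene it is known to act on, had 0.20 and 0.07.

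**Figure D4:**
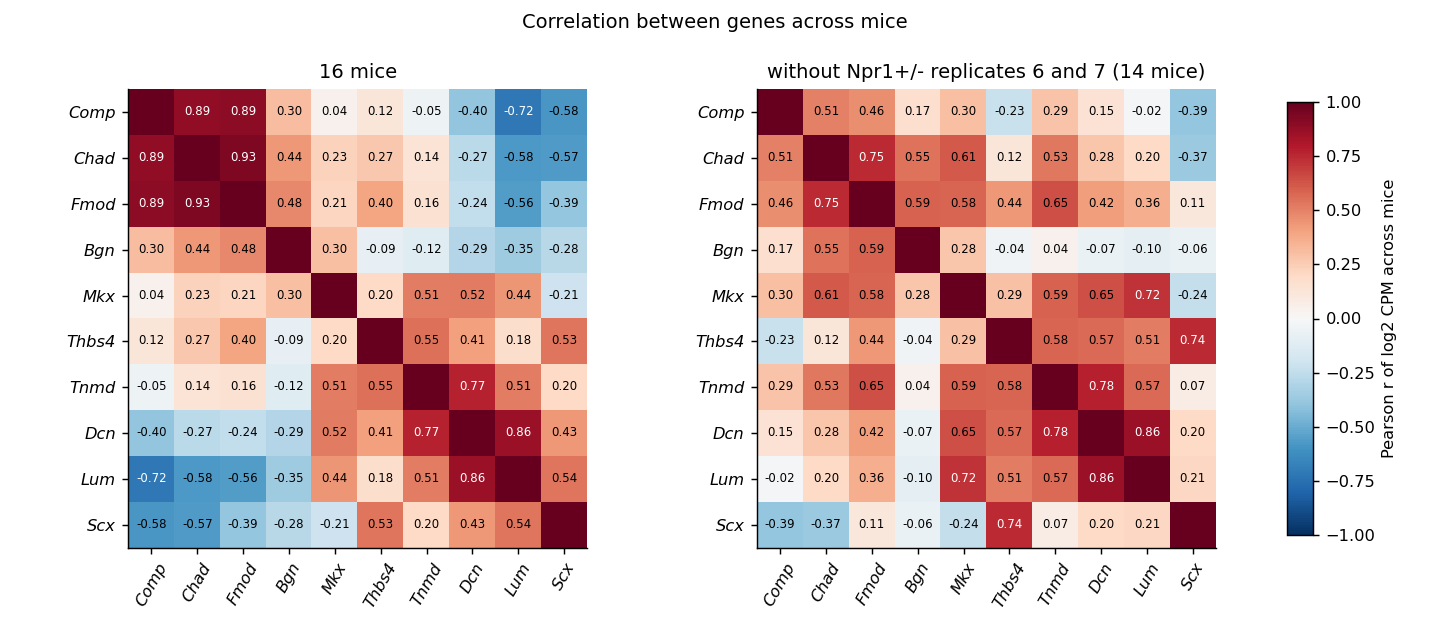
Pearson r of log2 CPM between each pair of the 10 genes across 16 mice (left) and across 14 mice without Npr1+/- replicates 6 and 7 (right), from -1 in blue to 1 in red. The block of Comp, Chad and Fmod and its negative values with Lum weaken on the right, whereas Dcn and Lum stay at 0.865.

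Fmod, Dcn and Lum lie in clusters of related proteoglycan genes. Prelp, next to Fmod on chromosome 1, had 98.8 CPM in Npr1+/- replicate 6 and 43.0 CPM in replicate 7, against 17.1 to 31.3 CPM in the other 14 libraries. Its r with Fmod was 0.94, and 0.76 without these libraries. Kera, which follows Lum on chromosome 10, had r = 0.93 with Dcn, and in a further cluster of the family, on chromosome 13 and away from the 10 genes, Aspn had 0.91, Ogn 0.93, Omd 0.89 and Ecm2 0.52 with Dcn. Aspn, Ogn and Omd were, as Lum was, below the other 14 libraries in both replicates 6 and 7. Epyc and Optc, also in these clusters, were too low to be tested, with at most 0.432 and 0.424 CPM. Dcn and Fmod, by comparison, had r = -0.245 in all mice and 0.42 without replicates 6 and 7.

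Among the other tested genes that have a symbol, those most like Tnmd by Pearson r of log2 CPM (n = 16) were Dpp4 (0.91), Emb (0.88), Kera (0.86), Angptl1 (0.83) and Gm34006 (0.82). For Dcn they were Smoc2 (0.95), Rnase4 (0.94), Ms4a4d (0.94), Kera (0.93) and Ogn (0.93). Kera, the gene of the proteoglycan keratocan, was on both lists. Without Npr1+/- replicates 6 and 7, r stayed between 0.82 and 0.91 for the genes like Tnmd and between 0.91 and 0.93 for those like Dcn.

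Genes of other cell types also lay outside the range of the other 14 libraries in both Npr1+/- replicates 6 and 7, as 17.8% of all tested genes did above it and 16.2% below it. Among 10 skeletal muscle fiber markers 3 were above that range in both (Myh4, Myh1 and Atp2a1) and 3 below (Ckm, Tnni2 and Mb), and Myh4, the fastest myosin heavy chain, had 52542 and 58769 CPM against 4960 to 29384 CPM. Of 8 slow-fiber markers Myh7, Myh7b and Atp2a2 were above in both, with 28.6 and 6.64 CPM for Myh7 against at most 2.58 CPM elsewhere, although the list summed to 242.8 and 154.7 CPM against 117.5 to 258.2 CPM. Of 7 myotendinous junction markers 6 were tested and 4 of these were above in both (Col22a1, Fras1, Adamts20 and Itga10), while Ankrd1 and Tigd4 lay within the range. The junction list summed to 74.1 and 65.3 CPM against 22.1 to 66.3 CPM.

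In Npr1+/- replicates 6 and 7 some vessel markers lay outside the range of the other 14 libraries, while the list sums lay within it. Of 9 endothelium and pericyte markers 7 were above the other 14 libraries in both replicates and Rgs5 was below, with 167.2 and 163.9 CPM for Cdh5, the cadherin of endothelial junctions, against 41.6 to 107.2 CPM, and the list summed to 1056 and 1217 CPM against 969.8 to 1385 CPM. Of 6 smooth muscle markers Myh11 and Smtn were above, and the list summed to 3511 and 3311 CPM against 2214 to 5680 CPM. Of 10 Schwann cell and perineurium markers 3 were above, and of 7 adipocyte and 8 macrophage markers tested 0 were above or below in both. Of 12 fibro-adipogenic fibroblast markers Pdgfra and Col15a1 were above and Ly6a was below, and the list, most of which is Gsn, summed to 1387 and 1046 CPM against 889.8 to 1422 CPM. Of 18 genes of TGF-beta signalling 7 were above, Tgfbr2 and Smad3 among them, and Postn was below.

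Across 16 mice r with the leading principal component was -0.87 for Lum, -0.82 for Dcn and -0.80 for Scx, and 0.71 for Comp, 0.61 for Chad and 0.50 for Fmod. Without replicates 6 and 7 (n = 14) these were -0.68, -0.76, -0.71, 0.245, 0.099 and -0.34 in the same order, so the relation of Fmod changed sign. For Thbs4 the value was -0.42 in all mice and -0.81 without these libraries, the strongest of the 10 genes there, and for Tnmd it was -0.52 and -0.53. The part of these other genes in the values of Comp, Chad, Fmod and Lum was not tested.

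Comp and Chad are also known from cartilage, and several of the proteoglycans from bone. Of 12 cartilage markers 3 were tested, Matn1 and Snorc had 0 counts in all 16 libraries, and Acan was at most 0.637 CPM. In Npr1+/- replicates 6 and 7 the cartilage list summed to 8.15 and 7.28 CPM, against 7.28 to 11.9 CPM in the others, and Acan was at 0 and 0.0455 CPM. Replicate 6 had the highest Col2a1 (0.515 CPM against at most 0.336 CPM in the 14 others) and Sox9 (1.499 CPM against at most 1.31 CPM), both of which are low in all libraries. Of 8 bone markers 5 were tested, Sost and Bglap were at most 0.0910 and 0.291 CPM, and the list summed to 32.3 CPM in replicate 7 and 35.0 CPM in replicate 6 against 36.3 to 77.4 CPM elsewhere. Spp1, which macrophages also express, was at 1.87 and 2.46 CPM in replicates 6 and 7 against 9.46 to 43.3 CPM.

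Lists of related genes gave no called difference between labels either. Of the other leucine-rich matrix proteoglycans 10 of 13 were tested, with 9 estimates above 0, 1 below and 0 called, and a median log2 fold change of 0.35 against -0.0060 over all genes. Among them Tsku had 0.41 (p = 0.120) and Ogn 0.39 (p = 0.124), both unadjusted edgeR quasi-likelihood p-values. All 3 other thrombospondins were above 0 with a median of 0.25, and Thbs1 had 29.5 CPM in Npr1+/- replicate 6 against 5.46 to 17.8 CPM in the libraries other than replicates 6 and 7. Of 24 other tendon and ligament genes 22 were tested, 18 were above 0 and 4 below, 0 were called, and the median was 0.24. Six2, a homeobox factor of tendon, had the smallest p-value there with a log2 fold change of 0.44 (edgeR unadjusted p = 0.0739), and Cilp, a matrix protein of cartilage and tendon, had 69.1 CPM in Npr1+/- replicate 6 and 29.4 CPM in replicate 7 against 12.9 to 30.0 CPM elsewhere. These lists overlap in Kera. No list median, here or below, was recomputed without Npr1+/- replicate 6, the highest library for Prelp, Thbs1, Thbs3 and Cilp. Aspn, Ogn and Omd were low in that library.

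TGF-beta signalling is known to act on Scx and on many matrix genes. Of 18 TGF-beta ligands, receptors and matrix targets 18 were tested, 14 were above 0, 4 below and 0 called, with a median of 0.07. Ccn2, a growth factor that TGF-beta induces, had a log2 fold change of 0.65 (edgeR unadjusted p = 0.0391, adjusted p = 1). Its level was 37.4 CPM in Npr1+/- replicate 6 and 10.4 CPM in replicate 7, against 8.35 to 30.5 CPM elsewhere. Of 18 genes of collagen fibrils and their processing 12 were above 0 and 6 below, with a median of 0.03. Col1a2 had 0.22 (edgeR unadjusted p = 0.137) and Fn1 0.51 (edgeR unadjusted p = 0.142). Fn1 had 79.9 CPM in Npr1+/- replicate 6 and 47.4 CPM in replicate 7, against 19.4 to 34.6 CPM elsewhere. Of 21 glycosaminoglycan synthesis genes 19 were tested, 9 were above 0 and 10 below, with a median of -0.0044, and Chsy1, which builds chondroitin chains, had 0.48 (edgeR unadjusted p = 0.0583). In both of these lists 0 genes were called.

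Body weight was a covariate in the same fit. It ran from 36.5 to 54 g over the 16 mice. No gene of the 10 passed an adjusted p-value of 0.05 (0% of all genes did), and 3 of 10 had an unadjusted p-value under 0.05, against 17.1% of all genes. These were Lum with a log2 change of 0.13 per g (SE 0.044, p = 0.00867), Tnmd with 0.086 per g (SE 0.030, p = 0.0112) and Dcn with 0.075 per g (SE 0.027, p = 0.0146), each with an adjusted p = 0.246 from edgeR. All 3 had higher values in heavier mice. The slopes of Thbs4 (0.065 per g), Mkx (0.040 per g) and Scx (0.028 per g) were above 0, and those of Fmod (-0.0045 per g), Bgn (-0.012 per g), Chad (-0.048 per g) and Comp (-0.069 per g) below. DESeq2 and limma-voom also called 0 of the 10 by body weight, with 5 of the 10 (Scx, Mkx, Tnmd, Comp and Chad) given no adjusted p-value by DESeq2. Without other terms, r of log2 CPM with body weight was 0.54 for Lum (0.50 in the 10 Npr1+/- and 0.89 in the 6 Npr1+/+ mice), 0.47 for Dcn (0.65 and 0.27) and 0.44 for Tnmd (0.64 and -0.10). When the lightest and the heaviest mouse were left out these were 0.33, 0.34 and 0.43.

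The result by body weight turned on Npr1+/- replicate 3, a mouse of 40.1 g. This library was the lowest of all 16 for Mkx, Tnmd, Thbs4, Bgn, Fmod and Chad. Without it 4 of the 10 genes passed the adjusted threshold, against 22.1% of all genes tested, so the share of the 10 is to be read against a background that rose as well. Lum had a log2 change of 0.21 per g (edgeR adjusted p = 0.00984) and Dcn 0.096 per g (adjusted p = 0.0422), whereas Comp fell by 0.15 per g (adjusted p = 0.0211) and Chad fell by 0.14 per g (adjusted p = 0.0414). Without replicates 3 and 6 of Npr1+/-, 2 genes were past the threshold, against 12.2% of all genes tested, Comp at -0.11 per g (adjusted p = 0.0379) and Lum at 0.18 per g (adjusted p = 0.0222). Tnmd had 0.071 per g (adjusted p = 0.146) without replicate 3.

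**Figure D5:**
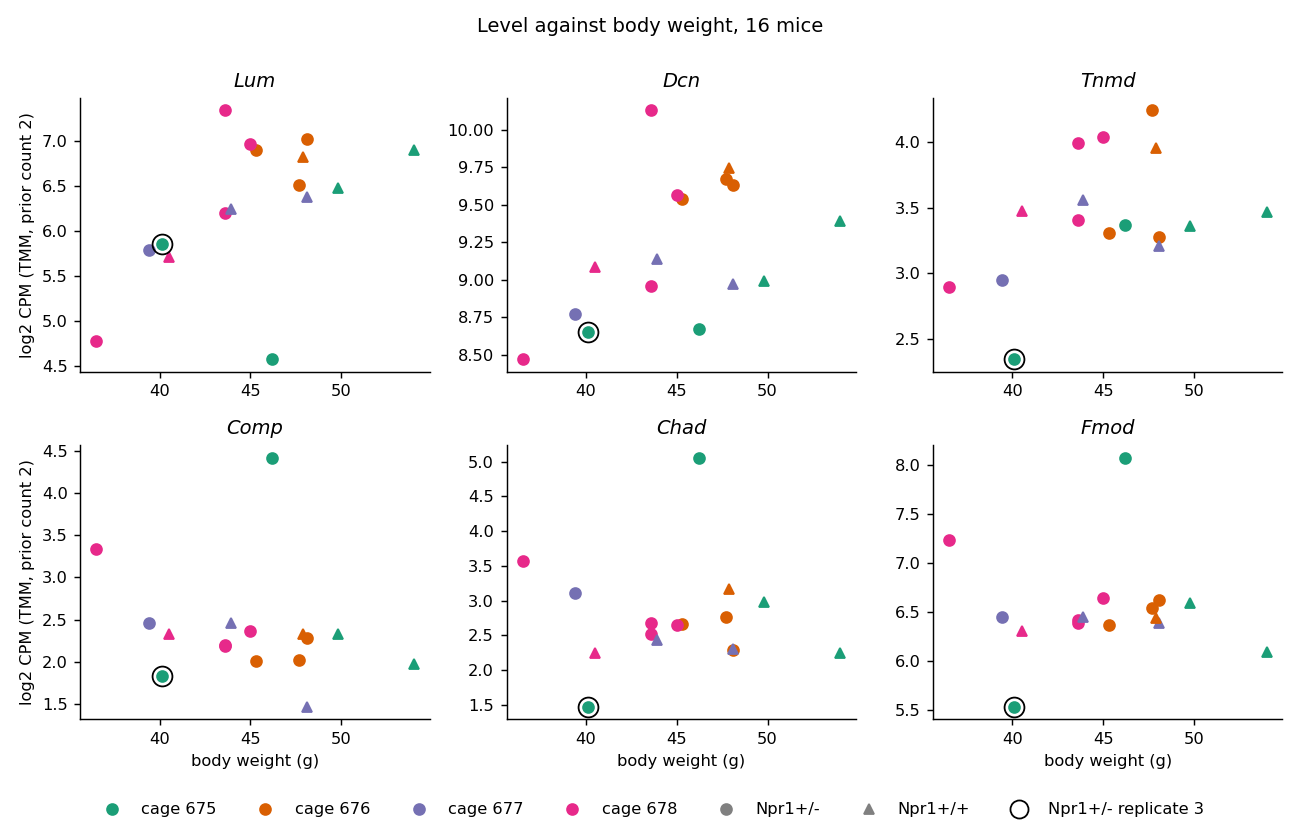
Log2 CPM (TMM, prior count 2) against body weight in g for 6 of the genes, coloured by cage, with circles for Npr1+/-, triangles for Npr1+/+ and a ring around Npr1+/- replicate 3. The point of 46.2 g at the top for Comp, Chad and Fmod and at the bottom for Lum is Npr1+/- replicate 6, and the lightest mouse, at 36.5 g, is replicate 7.

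No gene of the 10 was called by cage in the full set of mice. By the test of all 4 cages in the same fit, 0 of 10 genes passed the adjusted threshold, against 0.0279% of all genes, and 2 of 10 had an unadjusted p-value under 0.05, against 7.36% of all genes. These were Dcn (p = 0.0203, edgeR) and Tnmd (p = 0.0235, edgeR), both with an adjusted p = 0.656. Dcn averaged 802.9 CPM in the 4 mice of cage 676, 654.1 CPM in the 5 of cage 678, 501.2 CPM in the 3 of cage 677 and 497.2 CPM in the 4 of cage 675, and Tnmd was likewise highest in cage 676 at 13.4 CPM and lowest in cage 675 at 9.12 CPM. The ranges within cages overlapped for Tnmd, and for Dcn the lowest mouse of cage 676, at 744.3 CPM, was above all mice of cages 675 and 677. Without Npr1+/- replicate 3, 2 of the 10 genes were called by cage, Comp (adjusted p = 0.0253) and Chad (adjusted p = 0.0282), against 6.08% of all genes, and with replicate 6 also left out 0 were, against 0.00702% of all genes.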

How the data were processed

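Skeletal muscle RNA of 16 mice was measured by paired-end sequencing of 52 bases. The authors mapped reads to GRCm38 with STAR 2.7.2b and counted fragments with both ends aligned per gene of GENCODE M24 with featureCounts (version 1.6.4 per the labels). The library kit is named differently by the labels and by the methods, and the strand setting of the counting is not given in the sources used here. The deposited values are raw counts, and the table also gives a gene length.

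Symbols were matched for 55144 of 55471 identifiers. Counts were filtered with filterByExpr, scaled with TMM and tested in edgeR 4.0.16 (R 4.3.3) with its quasi-likelihood functions (glmQLFit with legacy = TRUE and robust = TRUE, then glmQLFTest), where cage, body weight and genotype label were terms, and Benjamini-Hochberg adjustment over 14331 genes at a threshold of 0.05. The coefficients of the label and of body weight and a joint test of cages come from that fit. Log2 CPM used a prior count of 2, and a standard error is the log2 change divided by the root of the F statistic. A gene was called at an adjusted p-value under the threshold. Group membership came from the labels, and no per-sample column was unmapped. The steps were tested on simulated data. Alternatives were other covariates, size factors and filters, DESeq2 1.42.0, limma-voom 3.58.1, a replicate block and leaving out each mouse, and 2 further fits without pairs of mice were added after the data were seen.

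The 10 genes and the lists of related genes were chosen with earlier results of these data known. All 10 are reported, at most 2 genes with the smallest p-values in each direction are named per list, and the 5 genes with a symbol most correlated with Tnmd and with Dcn are named. Marker genes, Tgfbr2, Smad3, Postn and Cilp, named beside Npr1+/- replicates 6 and 7, and neighbouring genes were chosen after their values were seen. Totals bound the counting error only, and 3 counts correspond to 0.0493 to 0.219 CPM per library.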

Additional observations from a re-analysis of the deposited data

How the results depend on the processing

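Between labels 0 of the 10 genes were called under 28 of 28 alternatives, and the median log2 fold change of the 10 ran from -0.06 to 0.22. Among single estimates between labels 253 of 280 kept their sign, and the cause of the other 27 was not tested. With the label alone Tnmd had -0.040, Thbs4 -0.0057 and Lum -0.038, and with cage as the only covariate Mkx had -0.083, Tnmd -0.27, Dcn -0.19 and Lum -0.38. With limma-voom Tnmd had -0.0010. Leaving out each mouse in turn gave ranges of -0.29 to 0.10 for Scx, -0.10 to 0.19 for Mkx, -0.075 to 0.13 for Tnmd, -0.19 to 0.60 for Comp, -0.030 to 0.18 for Dcn, -0.050 to 0.54 for Fmod and -0.17 to 0.97 for Chad. Without Npr1+/- replicates 6 and 7, Tnmd had -0.059, Comp -0.093 and Chad -0.029, and without replicates 3 and 6 Tnmd had -0.054 and Comp -0.061 (both fits were chosen after seeing the data).

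For body weight (log2 per g) 235 of 260 estimates kept sign and call. With body weight as the only covariate Fmod had 0.011 and Chad 0.029, with limma-voom Fmod had 0.017 and Chad 0.0030, and with library size alone Fmod had 0.0033. Left-out mice gave -0.074 to 0.035 for Fmod and -0.040 to 0.0071 for Bgn. Without replicates 6 and 7 Bgn had 0.012, Fmod 0.047 and Chad 0.024. Left-out mice gave 0 to 4 of the 10 genes called by body weight and 0 to 2 by cage, and without replicates 3 and 6 of Npr1+/- 2 were called by body weight.

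Over all genes, calls between labels were 0 to 3 with 1 mouse left out, 2 without replicates 6 and 7, 2 without replicates 3 and 6, 8 without a filter and 6 with DESeq2. Calls by body weight were 0 to 3158 with 1 mouse left out (3158 without Npr1+/- replicate 3), 1734 without replicates 3 and 6 and 26 with DESeq2, which leaves some adjusted p-values undefined. Calls by cage were 4 in the fit reported and 0 to 869 with 1 mouse left out, 1 without replicates 3 and 6, 0 with library size alone, 23 without a filter, 1 with at least 10 counts per library, 78 with DESeq2 and 1 with limma-voom.

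Replicate numbers do not pair the samples, which are different animals: the correlation of same-numbered deviations over genes was 0.0328 to 0.170. A replicate block in place of cage gave 2 genes called between labels and 1 by body weight, 0 of them among the 10. Replicate numbers carried by an Npr1+/- mouse alone add nothing to the label estimate of this block fit. In the block fit Thbs4 (-0.040) and Lum (-0.051) were below 0 between labels, while Chad had 0.92 (edgeR unadjusted p = 0.0185), Comp 0.69 (p = 0.0333), Fmod 0.53 (p = 0.0260) and Scx -0.48 (p = 0.0426), 4 of 10 genes under an unadjusted 0.05 against 1294 of 14331 genes in that fit. Their adjusted p-values were 0.521 to 0.544. In it, per g Scx had -0.041, Comp 0.065, Bgn 0.0041, Fmod 0.081 and Chad 0.13. Mkx had the fewest counts, 14 to 70 per library.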
